A study of Mus musculus with 12 samples.

Results

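Short-lived effector cells (SLEC) lacking Rroid2 were compared with wild-type (WT) SLEC on day 7 of a bacterial infection, over all genes that passed a filter on low counts. The comparison used 4 of the 12 libraries of the series, 2 of Rroid2 knockout (KO) and 2 of WT cells, and 14460 of the 55421 genes in the table passed the filter. The cells were OT-I cells, CD8 T cells with a transgenic receptor for a peptide of ovalbumin, transferred into mice that were infected with Listeria monocytogenes carrying ovalbumin (LM-OVA). They were sorted from the spleen of the hosts by flow cytometry. The other 8 libraries, 2 each of WT and KO SLEC and of WT and KO memory precursor effector cells (MPEC) on day 14, entered the same fit. All groups share the OT-I receptor, the transfer and the infection. The sources used here do not give the age of the mice, the allele of the KO, the markers of the sort or the number of mice behind a library. Nothing in the labels ties the 2 libraries of a group to separate mice, so the p-values measure only the spread between libraries, which may be technical.

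After infection, activated CD8 T cells divide rapidly and give rise to cells that mostly die when the pathogen is cleared and cells that found the memory pool. SLEC are by convention high in KLRG1 and low in CD127, the protein of Il7r, and carry the transcription factors T-bet (Tbx21), ZEB2 and Blimp-1 (Prdm1). MPEC keep CD127, TCF1 (Tcf7) and other genes of long-lived cells. By its name Rroid2 belongs to the surroundings of Id2, an inhibitor of E proteins that effector CD8 T cells need, but no row of the table bore that symbol, so its loss could not be checked in the counts.

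The WT libraries held 14026594 and 12346072 counts and the KO libraries 13533933 and 11380423. Levels are given as CPM, a count divided by the scaled library size, and 3 counts in a library equalled 0.223 to 0.306 CPM. Klrg1 was at 321 and 212 CPM in WT and 219 and 249 CPM in KO SLEC, against 1.33 to 3.74 CPM in the 4 MPEC libraries. Il7r was at 14.1 to 22.9 CPM in the 4 day 7 libraries, against 760 to 1037 CPM in MPEC. These markers of SLEC and MPEC followed the labels in both genotypes. As the sort may have used their proteins, this can come from the sort itself. The SLEC here were of day 7 and the MPEC of day 14, so day and population are not separated. Cd8a was at 841 to 1115 CPM and Cd4 had at most 6 counts in a day 7 library. Of the counts of T cell receptor beta variable segments, 99.4% to 99.8% per library fell on Trbv12-1, a share singled out after its values were seen.

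The first WT library stood apart from the other 3 in genes of cell division, and this bears on every result below that involves them. The 30 genes of a G2 and M phase list summed to 1620 CPM in WT replicate 1, against 4235 CPM in WT replicate 2 and 3621 and 3537 CPM in KO. Mki67, the gene of the proliferation antigen Ki-67, was at 513 and 1490 CPM in WT and at 1246 and 956 CPM in KO. Over the day 7 libraries 8309 genes had a mean level of 3 or more in log2 CPM, and among them the median difference between the WT replicates was 0.27 on the log2 scale, against 0.24 between the KO replicates and 0.13 between the means of the genotypes. A difference above 1 on that scale separated the WT replicates for 6.49% of these genes, the KO replicates for 2.17% and the means of the genotypes for 0.325%. Single replicates of a genotype thus lay further apart than the means of the genotypes, which average 2 libraries each. Another split ran across the genotypes. WT replicate 1 and KO replicate 2 had 17582 and 16088 genes with a count, against 21214 and 19466 in WT replicate 2 and KO replicate 1. In the same order, the noncoding RNA Gm42418 was at 52067 and 61449 against 23003 and 33446 CPM. Ribosomal protein genes summed to 10890 and 11600 against 8422 and 8394 CPM. The part of this split in other lists was not tested.

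Of the genes tested on day 7, 4 were called between KO and WT SLEC, or 0.0277%. Ctse and Ptprv fell in KO and Ola1 and Mfsd14b rose, 0.0138% of tested genes in each direction, by edgeR's quasi-likelihood test at a Benjamini-Hochberg adjusted p under 0.05. At an unadjusted p under 0.05 there were 488 genes, or 3.37%. Both KO libraries lay above both WT libraries for 1622 genes (11.2%) and below them for 1765 genes (12.2%).

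Promoters were looked up for all 4 called genes and searched for E-boxes, of the letters CANNTG, a pattern that reads alike on both strands. Id2 acts on proteins that bind E-boxes, but Id2 itself was not called. RefSeq promoters in build GRCm38.p6 were found for 2 of the 4 called genes, Ola1 and Mfsd14b, and not for Ctse or Ptprv. For each, the 250 bases before the RefSeq start are printed 5′ to 3′ on the gene's strand, with the E-box in capitals. The first lies at chr2:73214448-73214697 and the second at chr13:65112983-65113232, both on the minus strand, and neither overlaps an exon of GENCODE. The RefSeq start of Ola1 is also that of a protein-coding GENCODE transcript, but 1 noncoding transcript begins further upstream, so the window lies inside the GENCODE gene, whose 5′ end is 4.48 kb before that start.
Ola1: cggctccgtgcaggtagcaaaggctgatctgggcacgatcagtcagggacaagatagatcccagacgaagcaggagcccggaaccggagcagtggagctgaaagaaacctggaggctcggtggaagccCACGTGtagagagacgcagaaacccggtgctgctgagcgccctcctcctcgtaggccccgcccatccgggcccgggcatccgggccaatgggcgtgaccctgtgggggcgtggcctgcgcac
Mfsd14b: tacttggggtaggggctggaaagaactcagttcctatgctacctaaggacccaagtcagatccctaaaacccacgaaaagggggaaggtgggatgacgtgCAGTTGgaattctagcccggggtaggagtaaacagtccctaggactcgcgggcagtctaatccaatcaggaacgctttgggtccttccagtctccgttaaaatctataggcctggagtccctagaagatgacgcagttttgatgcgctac
Each held 1 match to CANNTG, beginning 122 bases before the RefSeq start of Ola1 and 150 bases before that of Mfsd14b. Such a match occurred in 66.2% of all 32851 promoter windows of the same length, so its presence in both is a description of the sequence only. The window of Ola1 was 66% G and C and that of Mfsd14b 51.6%.

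Ctse encodes cathepsin E, an aspartic protease of the endosomal system (ENSMUSG00000004552.16, GRCm38 chromosome 1, 131638306 to 131675505, plus strand). It was at 109.9 and 111 CPM in the WT libraries and at 19.9 and 17.1 CPM in the KO libraries. The groups did not overlap, and the gap between them was larger than the spread within either. The log2 change was -2.57 ± 0.18 (SE, n = 2 libraries per group, adjusted p = 4.7e-07 by edgeR), or 5.96-fold lower in KO. Some RNA remained, with 268 and 168 counts in the KO libraries. On day 14 the log2 change of Ctse was -2.61 ± 0.19 in SLEC and -2.77 ± 0.18 in MPEC, and it differed from that on day 7 by 0.04 ± 0.26 and 0.20 ± 0.26.

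Ptprv encodes a receptor-type protein tyrosine phosphatase, and the table types it as a polymorphic pseudogene. It lies on the minus strand of chromosome 1, from 135108497 to 135132594 (ENSMUSG00000097993.7). It was at 36.0 and 31.5 CPM in WT and at 8.93 and 4.39 CPM in KO. Both KO libraries lay below both WT libraries, and the KO replicates differed from each other more than the WT replicates did. The log2 change was -2.29 ± 0.30 (adjusted p = 0.0025 by edgeR), 5.07-fold lower in KO. Without KO replicate 2 the adjusted p was 0.092 and with the day 7 libraries fitted alone it was 0.20. An annotated RNA on the opposite strand, Gm10535, had 0 counts in all 4 libraries. The change was -3.37 ± 0.35 in SLEC on day 14 and -1.24 ± 0.34 in MPEC, where it was not called. The day 7 change minus these was 1.09 ± 0.51 and -1.05 ± 0.47. Neither difference was called (unadjusted p = 0.046 and 0.040, adjusted p = 0.75 and 1.00, edgeR), which does not show that the changes were equal.

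Ola1, the gene of an ATPase of the Obg family that acts in translation and stress responses (ENSMUSG00000027108.15, chromosome 2, 73092801 to 73218924, minus strand), showed the largest change of the 4. It was at 81.6 and 95.5 CPM in WT and at 2285 and 2764 CPM in KO. The counts were 1027 and 1244 in WT and 30723 and 27086 in KO, so that counting error was small in every library. The log2 change was 4.83 ± 0.34 (adjusted p = 1.7e-04 by edgeR), 28.5-fold higher in KO. Its log2 change stayed between 4.68 and 4.98 whichever library was left out, but without WT replicate 1 the adjusted p was 0.074.

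The 8 libraries of day 14 place the 2 groups. In SLEC of day 14, Ola1 was at 1639 and 1560 CPM in WT and at 2488 and 3813 CPM in KO. In MPEC it was at 2472 and 4192 CPM in WT and at 2461 and 3994 CPM in KO. The KO libraries of day 7 lay within the range of those 8 libraries, 1560 to 4192 CPM, and the WT libraries of day 7 were the low ones. The KO effect on Ola1 was larger on day 7 than in SLEC on day 14 by 3.85 ± 0.43 on the log2 scale (adjusted p = 0.032, edgeR) and larger than in MPEC by 4.88 ± 0.43 (adjusted p = 0.0036). It was the 1 gene called in each of these differences, 0.00692% of the genes tested in the first and 0.00692% in the second. None of its neighbours Sp3, Cir1, Scrn3 and Wipf1 was called. The log2 change of Sp3 was -0.22 ± 0.14, that of Cir1 -0.19 ± 0.26, that of Scrn3 0.19 ± 0.33 and that of Wipf1 -0.01 ± 0.14. The 3 pseudogenes annotated within Ola1 had at most 3 counts in a day 7 library.

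Mfsd14b encodes a membrane protein of the major facilitator superfamily of transporters (ENSMUSG00000038212.16, chromosome 13, 65064663 to 65112975, minus strand). It was at 96.6 and 72.0 CPM in WT and at 157 and 185 CPM in KO. Both KO libraries lay above both WT libraries. The log2 change was 1.02 ± 0.17 (adjusted p = 0.037 by edgeR), 2.02-fold higher in KO. This call was the least stable of the 4, as it held in 2 of the 12 fits that left out 1 library, with an adjusted p up to 0.62. Mfsd14b was also higher in KO SLEC on day 14, by 1.36 ± 0.17, and in KO MPEC by 0.87 ± 0.18, where it was not called (adjusted p = 0.55, edgeR). The day 7 change minus these was -0.34 ± 0.24 and 0.14 ± 0.24.

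**Figure D1:**
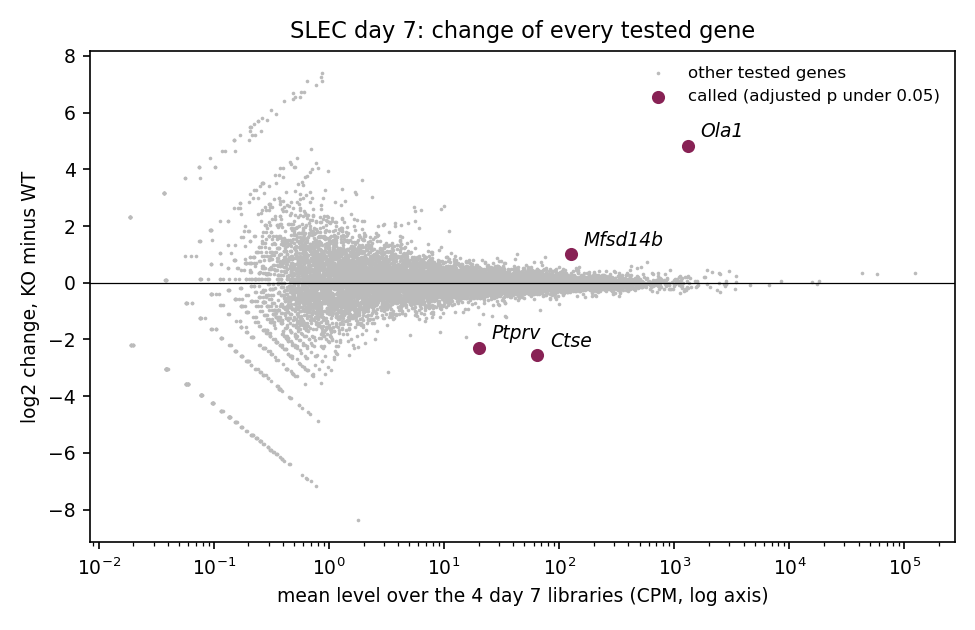
Log2 change between KO and WT SLEC on day 7 (vertical axis) against the mean level over the 4 libraries in CPM (horizontal log axis), 1 point per tested gene. The 4 called genes, Ola1, Mfsd14b, Ptprv and Ctse, stand away from the other genes of their level, at log2 changes of 4.83, 1.02, -2.29 and -2.57, while low genes to the left spread widely.

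**Figure D2:**
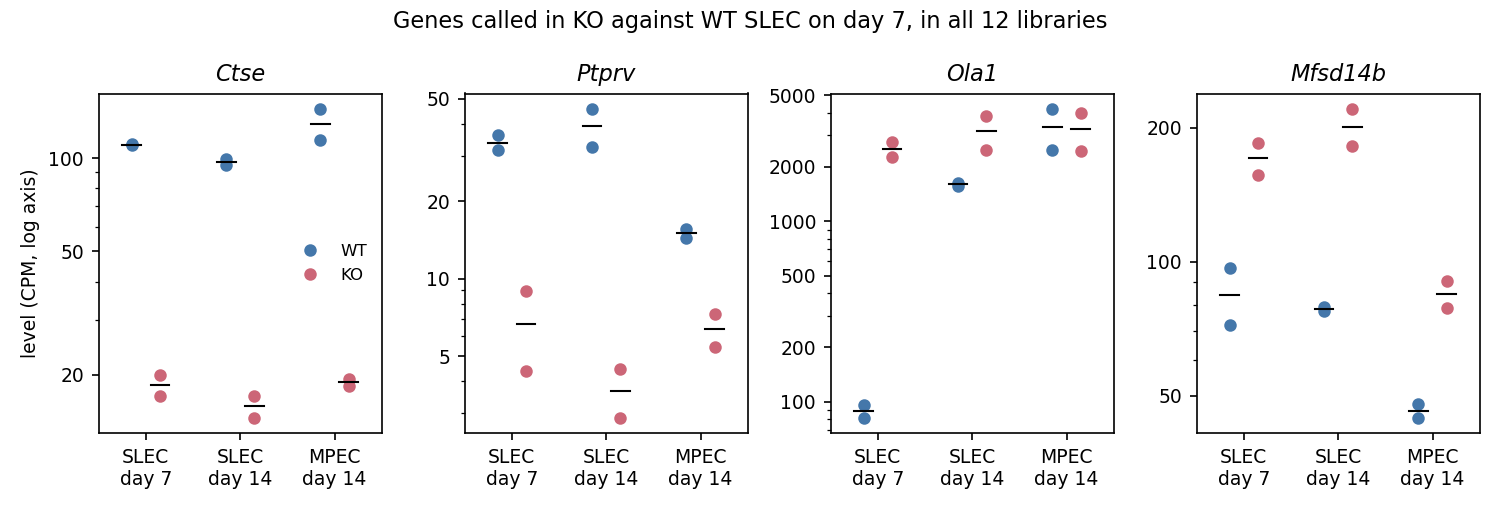
Level in CPM (log axis, a separate scale in each panel) of the 4 called genes in all 12 libraries; points are libraries, blue for WT and red for KO, and bars are means of 2. The points of Ctse, Ptprv and Mfsd14b separate by genotype in each of the 3 populations, though in MPEC Ptprv and Mfsd14b were not called. Ola1 is low in WT SLEC of day 7, at 81.6 and 95.5 CPM.

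The called genes were set beside related genes, in lists chosen because each holds 1 of them. As 0.0277% of all tested genes were called, a list of this size with no other call says little about its family. Of 15 cathepsin genes, 14 were tested and Ctse alone was called, with a median log2 change of -0.04, or 0.06 without WT replicate 1 and 0.16 without KO replicate 1. Of 21 receptor-type phosphatase genes, 7 were tested, and Ptprv alone was called. Ptprc, the gene of CD45, was at 3782 and 3045 CPM in WT and 3107 and 3771 CPM in KO, a log2 change of 0.01 ± 0.15. Ola1 was the 1 called gene of 15 GTPases of the Obg family and its relatives, whose median was 0.06 (-0.09 without WT replicate 1), and Mfsd14b the 1 of 13 tested Mfsd genes, whose median was 0.15. The median over all tested genes was 0.00.

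Ctse and Ptprv lie 3.46 Mb apart on chromosome 1, and Ptprc lies 2.999 Mb beyond Ptprv. Within 10 Mb of Ctse, 6 of 117 other tested genes (5.13%) had an unadjusted p under 0.05, and within 10 Mb of Ptprv 7 of 127 (5.51%), against 3.37% of all genes. Each window holds the other called gene, and no further gene in either was called with the main settings. Tmcc2, 0.717 Mb from Ctse, was low, at 0.238 and 0.845 CPM in WT and at 6.47 and 1.94 CPM in KO (3.01 ± 0.78). Without the filter on low counts Tmcc2 was called (adjusted p = 0.041, edgeR), and so were the red cell genes Hbb-bs, Hbb-bt and Alas2. Like them, Tmcc2 was highest in KO replicate 1. Whether its change belongs with theirs or with its position was not tested. Ube2t, a ubiquitin-conjugating enzyme of DNA repair 0.152 Mb from Ptprv, was at 5.09 and 6.07 CPM in WT and at 13.5 and 13.3 CPM in KO, a log2 change of 1.26 ± 0.35. Slc41a1, a magnesium transporter gene 0.181 Mb from Ctse, went the other way, from 32.98 and 22.9 to 21.1 and 12.04 CPM (-0.72 ± 0.28). Neither passed the test (adjusted p = 1.00 for both, edgeR). Around Mfsd14b, in a window added after the values were seen, 11 of 145 genes (7.59%) had an unadjusted p under 0.05, with a median log2 change of -0.02 over the window. Among the 11 were the zinc finger genes Zfp759, Zfp429 and Zfp748, 2.04 to 2.46 Mb away (0.86, 0.65 and 0.76), and Klhl3 (-1.11) and Fam193b (-0.46). Other zinc finger genes of that stretch had negative changes, such as Zfp458 (-0.41) and Zfp874b (-0.38). Around Ola1, 2 of 73 (2.74%) did.

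Below the threshold, the genes with the smallest p that lay wholly above or below the WT libraries were named by rule. Without a filter on low counts, 23 genes were called, among them Als2cl, Thbs1, Anxa1, Anln, Rsad2 and Klra3 of those named below. Without WT replicate 2, Als2cl (-1.70), Hdgfl3 (-0.90), Thbs1 (2.55), Anxa1 (1.52) and Tmem181c-ps were called. Als2cl, which encodes a relative of the Rab5 regulator alsin, was at 35.4 and 23.8 CPM in WT and at 12.6 and 8.67 CPM in KO. Its log2 change was -1.45 ± 0.29 (adjusted p = 0.21 by edgeR), and DESeq2 called it with an adjusted p of 0.0066. Hdgfl3, a gene of the hepatoma-derived growth factor family, was at 40.8 and 35.3 CPM in WT and at 21.3 and 22.7 CPM in KO (-0.80 ± 0.18, adjusted p = 0.61). Tmco3 (-0.91 ± 0.24), Eps8l1 (-0.85 ± 0.24), Wdfy1 (-0.74 ± 0.22), Fam219a (-1.21 ± 0.37), Fbf1 (-0.62 ± 0.20) and Cdip1 (-0.91 ± 0.30) followed on the lower side. The adjusted p was 1.00 for each of these 6.

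On the higher side Thbs1, the gene of the secreted matrix protein thrombospondin 1, was at 2.86 and 6.68 CPM in WT and at 13.6 and 20.6 CPM in KO. Its log2 change was 1.81 ± 0.43 (adjusted p = 0.76 by edgeR). Synj2, an inositol phosphatase gene, was at 6.44 and 8.75 CPM in WT and at 17.1 and 13.8 CPM in KO (1.03 ± 0.29). Maf, a transcription factor gene, was at 5.25 and 5.84 CPM in WT and at 10.5 and 14.7 CPM in KO (1.16 ± 0.34). Anxa1, the gene of annexin A1, was at 34.0 and 70.3 CPM in WT and at 80.8 and 115 CPM in KO (0.90 ± 0.28). Nemp2 (0.64 ± 0.20) and Zfp748 (0.76 ± 0.22) completed the 10 genes with Ube2t and mt-Nd6, and the adjusted p of these last 7 genes was 1.00. Outside the naming rule, the pseudogene Tmem181c-ps had 43 and 48 counts in WT and 0 in both KO libraries, at least 27.5-fold lower taking 3 counts over both KO libraries as the floor (adjusted p = 0.15 by edgeR), and was called by DESeq2 with an adjusted p of 0.012.

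With all libraries, no followed gene of effector or memory fate was called. Id2 was at 302 and 394 CPM in WT and at 445 and 391 CPM in KO, so the libraries overlapped. Its log2 change was 0.27 ± 0.18, with a 95% interval from -0.11 to 0.64. The E protein genes Tcf3 and Tcf12, whose products Id2 inhibits, were at 189 and 207 and at 102 and 96.2 CPM in WT, and at 192 and 189 and at 90.8 and 95.9 CPM in KO. The interval of Tbx21 ran from -0.43 to 0.31, that of Prdm1 from -0.28 to 0.43 and that of Klrg1 from -0.59 to 0.21. Those of the cytotoxic genes Prf1 (perforin), Gzma and Gzmb ran from -0.43 to 0.32, from -0.59 to 0.51 and from -0.44 to 0.94. Changes of more than 1 on the log2 scale thus lay outside these intervals. The interval lay within 1 log2 unit of 0 on both sides for 7431 of the 8309 genes at or above 3 in mean log2 CPM (89.4%).

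For Tcf7 and Eomes the intervals were wide. Tcf7 was at 81.1 and 33.4 CPM in WT and at 36.5 and 115 CPM in KO, and its interval ran from -1.28 to 2.06. Eomes, a T-box factor of memory cells, was at 57.3 and 68.3 CPM in WT and at 72.2 and 108 CPM in KO (interval from -0.78 to 1.80). Zeb2 was at 1051 and 534 CPM in WT and at 644 and 612 CPM in KO (-0.33 ± 0.22), and S1pr5, a receptor for exit from tissue, at 502 and 268 CPM in WT and 247 and 307 CPM in KO (-0.47 ± 0.22). For both, WT replicate 1 was the high library and the other 3 lay close together. Without WT replicate 2 both were called, Zeb2 with a log2 change of -0.74 (adjusted p = 0.013, edgeR) and S1pr5 with -0.86 (adjusted p = 0.0093). Myb, a memory factor gene, was called there too (2.604), having been at 4.69 and 29.9 CPM in WT and at 29.1 and 27.96 CPM in KO. Id3 had at most 1.27 CPM and Ccr7 at most 0.744 CPM in any of the 4 libraries.

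**Figure D3:**
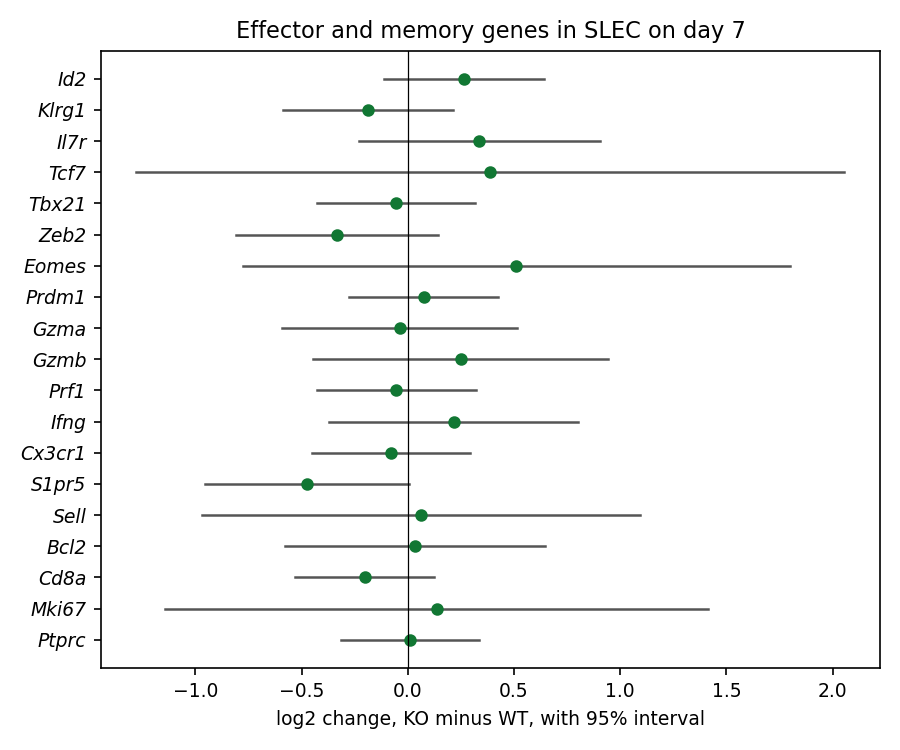
Log2 change between KO and WT SLEC on day 7 (horizontal axis) for 19 followed genes, with the 95% interval of the edgeR fit as a line. All 19 intervals include 0; that of Tbx21 runs from -0.43 to 0.31 and that of Tcf7 from -1.28 to 2.06.

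Functional lists were described by counts and medians and not tested. No member of the 23 lists outside the families of the called genes was called, where 4 of all 14460 tested genes (0.0277%) were. Over all tested genes 7226 of 14460 changes were positive. Leaving out WT replicate 1 turned the sign of 11 of the 27 list medians, WT replicate 2 that of 8, KO replicate 1 that of 3 and KO replicate 2 that of 14. Among 15 effector transcription factor genes the median log2 change was -0.04, with 7 positive and 8 negative, and among 14 memory factor genes it was -0.13 (-0.03 without WT replicate 1 and -0.21 without WT replicate 2). Of 15 tested cytotoxic granule genes 9 were positive (median 0.07), and of 20 genes of the T cell receptor and its first signals 11 were (median 0.01, or -0.005 with upper quartile scaling). Without KO replicate 2 the medians of these 2 lists were -0.16 and -0.14, and without WT replicate 2 that of the effector factors was 0.10. Gzmm, a granzyme gene, was at 10.8 and 7.68 CPM in WT and at 13.5 and 19.2 CPM in KO (0.81 ± 0.39). Of the costimulatory receptor genes 12 of 13 were positive (median 0.17, or 0.05 without KO replicate 2), with Slamf6 at 46.9 and 52.1 CPM in WT and 57.6 and 76.7 CPM in KO and Cd27 at 70.8 and 98.8 against 104 and 113 CPM.

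In the homing list both KO libraries lay above both WT libraries for 4 of 22 genes, against 11.2% of all tested genes. These were Ccr2, Cxcr3, Cd44 and Ccr7, the last of them near 0. Ccr2, which guides cells to inflamed tissue, was at 300.5 and 390 CPM in WT and at 417 and 449 CPM in KO (0.33 ± 0.15). Cxcr3, a receptor for interferon-induced chemokines, was at 27.4 and 63.7 CPM in WT and at 68.9 and 82.0 CPM in KO (0.72 ± 0.33), with WT replicate 1 the low library. Without WT replicate 2 its log2 change was 1.46 (adjusted p = 0.0053, edgeR). The list as a whole had 12 of 22 genes with a positive change and a median of 0.02 (-0.02 without KO replicate 2). Among 29 tested genes of the type I interferon response, 19 were positive (median 0.12, or -0.03 without WT replicate 2 and -0.06 without KO replicate 2). Rsad2, which encodes the antiviral enzyme viperin, had the smallest p of them, at 1.75 and 1.84 CPM in WT and 5.36 and 10.6 CPM in KO (2.09 ± 0.52, adjusted p = 0.92 by edgeR). Positive changes were found in 58 of 76 nuclear respiratory chain genes (median 0.09), in 16 of 20 genes of heat shock and the unfolded protein response (median 0.19) and in 41 of 80 ribosomal protein genes (median 0.01). Without KO replicate 2 these 3 medians were -0.08, -0.10 and -0.13.

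Of 21 genes for cytokine receptors, 8 had a positive change (median -0.05, or 0.04 without WT replicate 1). Il6ra, the receptor chain for interleukin 6, was at 2.46 and 1.69 CPM in WT and at 4.39 and 6.12 CPM in KO (1.31 ± 0.56). Il2rb, which carries interleukin 15 signals, was at 240.5 and 399 CPM in WT and at 337 and 331 CPM in KO, and Tgfbr2, a receptor for transforming growth factor beta, at 224 and 207 against 201 and 185 CPM. Among the inhibitory receptor genes, Pdcd1 (PD-1) was at 9.46 and 15.8 CPM in WT and at 15.5 and 26.2 CPM in KO (0.69 ± 0.35), and its libraries overlapped. Vsir, the gene of the checkpoint protein VISTA, was at 374 and 275.4 CPM in WT and at 244 and 275.1 CPM in KO (-0.32 ± 0.20). The median of the 12 inhibitory receptor genes was 0.09, -0.09 without WT replicate 1 and 0.43 without WT replicate 2.

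Of 12 tested cytokine and chemokine genes, Tnf had the smallest p, at 5.72 and 6.68 CPM in WT and at 8.11 and 11.8 CPM in KO (0.66 ± 0.35). Ifng, the gene of interferon gamma, was at 31.4 and 22.8 CPM in WT and at 35.4 and 27.0 CPM in KO, and Ccl5, an abundant chemokine RNA of effector cells, at 4620 and 2645 against 2464 and 3774 CPM. Both overlapped between genotypes. In the list of survival and death genes 12 of 18 changes were positive (median 0.09). This median was 0.02 without WT replicate 1, 0.05 without WT replicate 2, 0.27 without KO replicate 1 and 0.0045 without KO replicate 2. Bcl2a1b, a prosurvival gene with near-identical copies among which reads can be split, was at 3.81 and 2.84 CPM in WT and at 6.397 and 9.49 CPM in KO (1.23 ± 0.46). Bcl2 itself was at 22.6 and 30.6 CPM in WT and at 36.6 and 16.7 CPM in KO, and the proapoptotic gene Bbc3 at 13.0 and 11.2 against 9.74 and 8.27 CPM.

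Metabolic lists had medians near 0: 0.07 over 21 genes of glycolysis, -0.06 over 23 of cholesterol and fatty acid synthesis and -0.02 over 10 of amino acid and iron uptake. Gapdh had the smallest p of the glycolysis list, at 13.0 and 10.1 CPM in WT and at 21.3 and 17.6 CPM in KO (0.76 ± 0.26). Slc2a1, a glucose transporter gene, was at 26.5 and 45.6 CPM in WT and at 47.3 and 45.3 CPM in KO, with WT replicate 1 the low library. Slc1a5, a glutamine transporter gene, was at 111 and 96.4 CPM in WT and at 88.3 and 70.2 CPM in KO (-0.38 ± 0.17). Mvd, an enzyme gene of the mevalonate pathway, was at 20.6 and 16.6 CPM in WT and at 12.6 and 12.8 CPM in KO (-0.55 ± 0.26). The adjusted p of every gene named here and in the lists of cytokine receptors, inhibitory receptors, cytokines and survival genes was 1.00 by edgeR. Without WT replicate 2 the median of the cholesterol and fatty acid list was 0.38, and without WT replicate 1 it was -0.23. The median of the glycolysis list was -0.03 without WT replicate 1 and -0.04 without KO replicate 2, and that of amino acid and iron uptake 0.02 and 0.08.

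The mitochondrially encoded respiratory chain had the highest median of the lists. All 7 of its 13 genes that passed the filter were positive, with a median of 0.46. In 6 of them both KO libraries lay above both WT libraries, against 11.2% of all tested genes. These genes also moved together within a genotype, as replicate 2 was above replicate 1 for 0 of 7 in WT and for 7 in KO. The 6 are therefore not separate observations to set against that share. mt-Nd6, a subunit of complex I, was at 133 and 108 CPM in WT and at 156 and 199 CPM in KO (0.56 ± 0.16). mt-Nd2 was at 445 and 337 CPM in WT and at 507 and 628 CPM in KO (0.54 ± 0.20). The adjusted p of both was 1.00 by edgeR. Without WT replicate 1 the median was 0.59, and without KO replicate 2 it was 0.32. The share of counts on mitochondrial ribosomal RNA was 18.3% and 12.6% in the WT libraries and 17.8% and 19.5% in the KO libraries. Its part in these values was not tested.

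**Figure D4:**
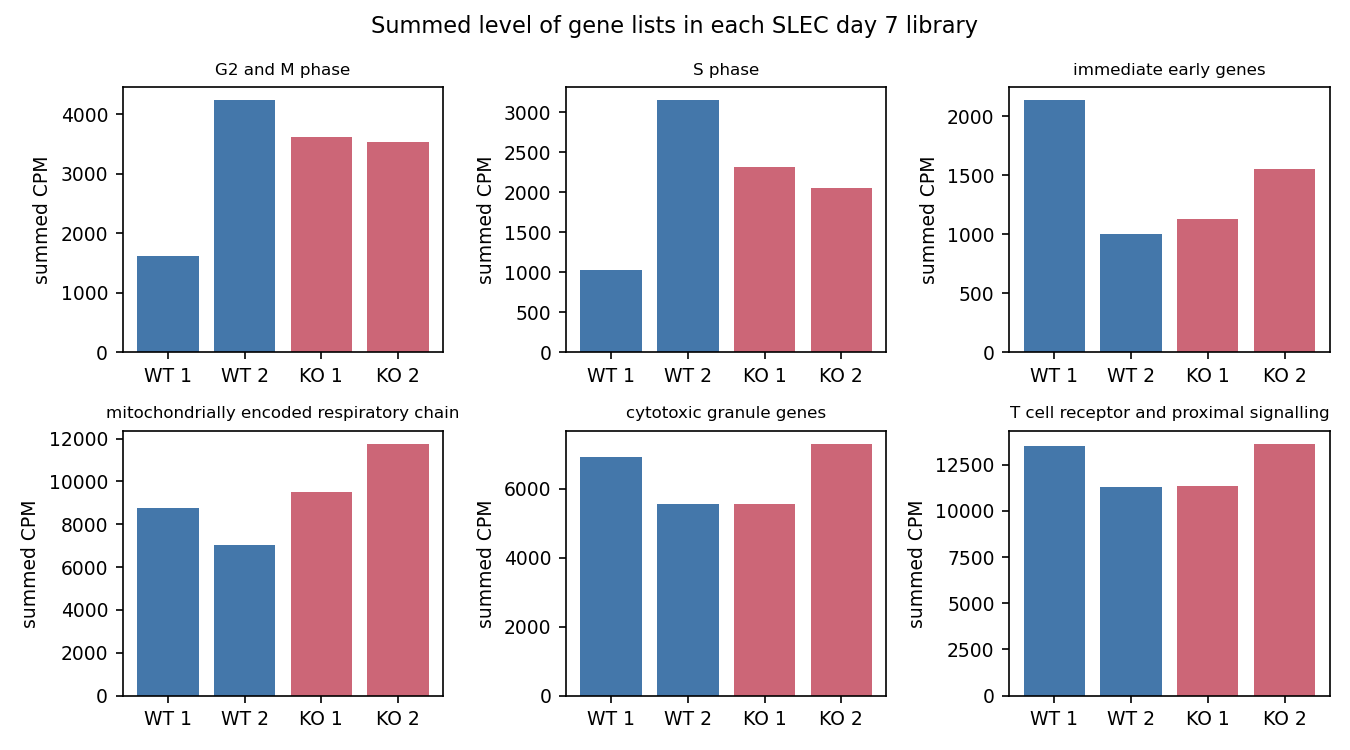
Summed level in CPM of 6 gene lists in each SLEC day 7 library, with WT in blue and KO in red. WT replicate 1 is the lowest library for both cell cycle lists and the highest for the immediate early genes, while the summed mitochondrial genes are above both WT libraries in both KO libraries.

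Most genes of mitosis were higher in the mean of the KO libraries, and this came with the low values of WT replicate 1. In the G2 and M phase list 29 of 30 changes were positive (median 0.35). Both KO libraries lay above both WT libraries in only 3 of the 30, as they did for 11.2% of all tested genes. Anln, the gene of the cytokinesis protein anillin, was at 14.7 and 41.9 CPM in WT and at 59.9 and 54.6 CPM in KO (1.01 ± 0.32). Aurka, a mitotic kinase gene, was at 8.98 and 16.6 CPM in WT and at 18.1 and 27.2 CPM in KO (0.80 ± 0.31). Ccnb1, the gene of cyclin B1, was at 3.81 and 5.22 CPM in WT and at 6.25 and 8.27 CPM in KO (0.66 ± 0.37). The adjusted p of these genes was 1.00 by edgeR. Without WT replicate 2 Anln was called, with a log2 change of 1.96.

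Top2a, a topoisomerase gene of dividing cells, shows the more common pattern, with 186 and 507 CPM in WT and 444 and 503 CPM in KO. Without WT replicate 1 the median of the G2 and M phase list was -0.17, and without WT replicate 2 it was 1.17. The S phase list had a median of 0.08 with all libraries, of -0.49 without WT replicate 1 and of 1.11 without WT replicate 2. None of its 30 genes separated the genotypes, where 11.2% of all tested genes lay higher and 12.2% lower in both KO libraries. Within WT, replicate 2 was above replicate 1 for 29 of 29 G2 and M phase genes (median 1.36) and 28 of 28 S phase genes (median 1.74) at a mean log2 CPM of 3 or more, whereas within KO the medians were 0.12 and -0.14. Leaving out WT replicate 2 raised the count of called genes from 4 to 198, 153 of them higher and 45 lower in KO, and 15 genes of each cell cycle list were among them.

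The immediate early genes, which respond within minutes to stimulation of a cell, showed the opposite order in their sum. They summed to 2137 and 1004 CPM in WT and to 1128 and 1556 CPM in KO, and 13 of 21 had a negative change (median -0.22). Nr4a1, which follows receptor signals, was at 46.7 and 12.7 CPM in WT and at 10.9 and 17.4 CPM in KO. Without WT replicate 1 the median of the list was 0.36 and without WT replicate 2 it was -0.66. In the latter fit 6 of the 21 were called, all lower in KO: Nr4a1 (-1.75), Egr1 (-1.34), Ier2 (-0.89), Junb (-0.70), Nfkbia and Dusp2.

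Killer lectin-like receptor genes, which are shared with natural killer cells, had negative changes in 9 of 12 tested genes, with a median of -0.33. Klra3, a Ly49 receptor gene, was at 22.7 and 5.53 CPM in WT and at 4.17 and 4.18 CPM in KO (-1.75 ± 0.53, adjusted p = 1.00 by edgeR). Klra9 was at 6.83 and 1.23 CPM in WT and at 1.19 and 1.22 CPM in KO. In both genes WT replicate 1 was the high library, and without WT replicate 2 Klra3 was called, with a log2 change of -2.44. Without WT replicate 1 the median of the list was 0.16, and without WT replicate 2 it was -0.70. Ly49 genes are near-identical copies of each other, and reads can be split among them.

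**Figure D5:**
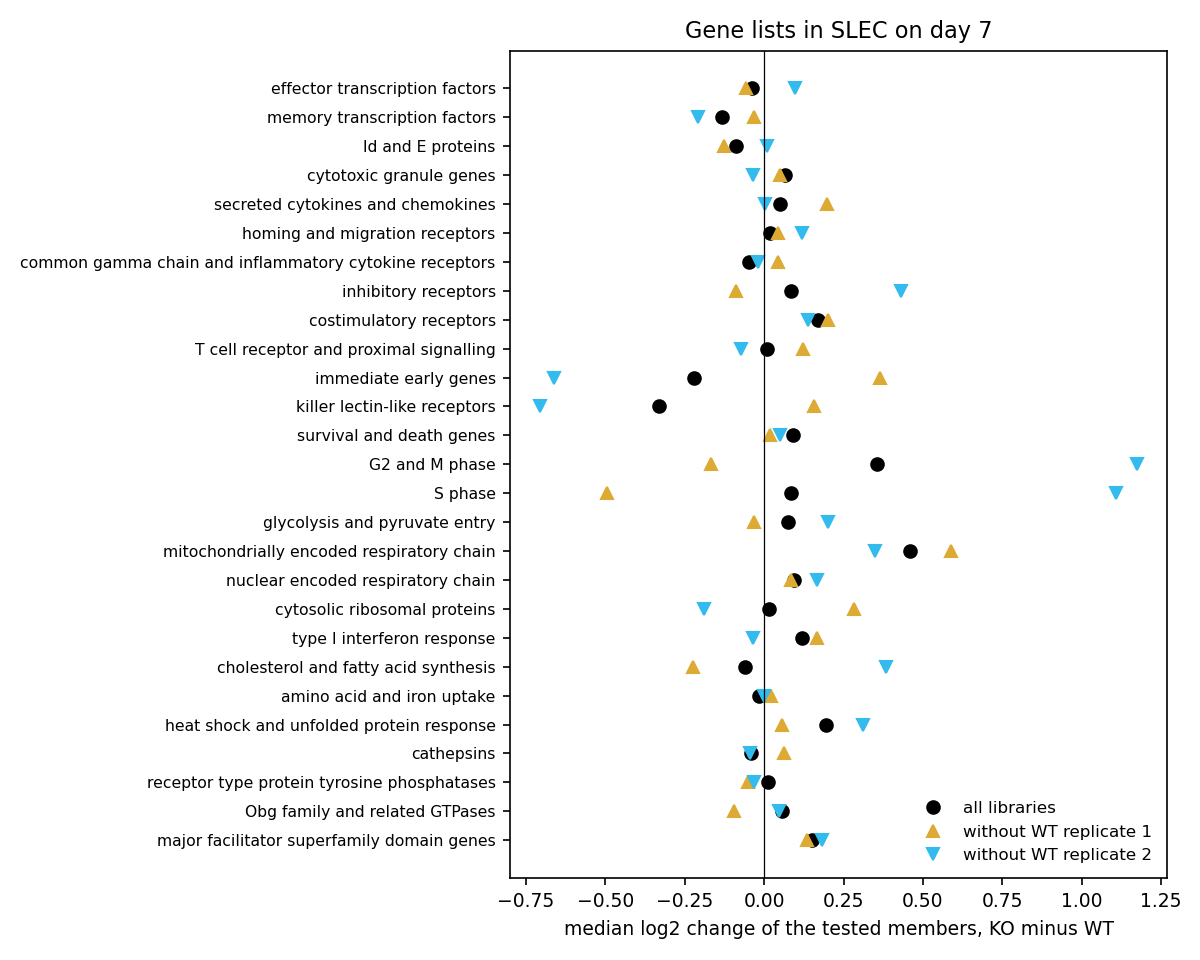
Median log2 change between KO and WT SLEC on day 7 (horizontal axis) over the tested genes of 27 lists, with all libraries (black circles) and without WT replicate 1 (yellow triangles) or WT replicate 2 (blue inverted triangles). The cell cycle lists move from -0.17 and -0.49 to 1.17 and 1.11 between the last 2, and the mitochondrially encoded list stays between 0.35 and 0.59.

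Marker genes of other cells were summed by list. The 11 erythroid genes found summed to 6.83 and 22.7 CPM in WT and to 111 and 31.4 CPM in KO. Both KO libraries lay above both WT libraries for 5 of the 11. The share was 11.2% among all tested genes, but these markers were taken without the filter on low counts, so the sets are unlike. KO replicate 1 was the high library, and the sum of KO replicate 2 lay within the range of the day 14 libraries, 0 to 32.2 CPM. Slc4a1, the red cell anion exchanger gene, was at 1.19 and 4.30 CPM in WT and at 27.3 and 7.45 CPM in KO. Epb42, a red cell membrane gene, had 0 counts in WT and 30 and 12 in KO, at least 15.4-fold higher with 3 counts over both WT libraries as the floor. Without a filter on low counts Hbb-bs, Hbb-bt and Alas2 were among the 23 genes called, with log2 changes of 2.61, 2.69 and 2.54. The B cell list summed to 19.9 to 55.3 CPM and the neutrophil list to at most 3.27 CPM in the day 7 libraries, and Cxcr2 and Csf3r had 0 counts. The NK cell list summed to 75.5 to 136 CPM, most of it from Eomes, with Ncr1 at 0, and the gamma delta T cell list to 47.6 to 93.0 CPM, most of it from Trdc (44.7 to 89.0 CPM), with Il23r, Sox13 and Tcrg-C1 at 0. The lists of plasma cells (Xbp1 at 31.6 to 53.8 CPM, Mzb1 and Sdc1 at 0), monocytes or macrophages, platelets and CD4 T cells summed to between 24.3 and 54.4 CPM in each library, that of dendritic cells to 6.91 to 46.2 CPM and that of stroma to 4.29 to 14.7 CPM. The part of these cells in the results was not tested. In bulk RNA, more cells of a type and more RNA per cell cannot be told apart.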

How the data were processed

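RNA of sorted OT-I cells was sequenced in 12 libraries, 6 groups of 2, and column names were matched to the labels. The authors deposited raw read counts per gene. Per the labels' protocols, RNA came from a micro column kit and libraries from a stranded SMART-Seq kit, and per the submitters' processing notes the tools were bcl2fastq and STAR 2.6.1a with build GRCm38. The sources used here name no counting program, annotation or strand setting, so reads of a gene and its antisense partner may not be separated. Identifiers were matched to GENCODE M21 without version (55240 of 55421, 99.7%), and 27 symbols turned into dates were restored.

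Counts were fitted in R 4.3.3 with edgeR 4.0.16 (quasi-likelihood, robust shrinkage, bias-adjusted deviances, filterByExpr over the 6 groups, TMM scaling), with 1 coefficient per group over all 12 libraries, 6.00 residual degrees of freedom and 11.9 prior ones (median). Tests are two-sided, with Benjamini-Hochberg adjustment over 14460 genes and a call under 0.05; with 2 libraries against 2, an exact permutation test cannot go below p = 0.333. CPM are counts over the scaled library size, log2 changes have the SE and 95% interval of the fit, and floors and counts cover counting error only. Within a group the replicates differed by more than counting error (chi-square per degree of freedom 72.9 in WT and 27.6 in KO), so they were kept as 2 samples.

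Named genes were the called ones, the 10 per direction with the smallest p among non-overlapping genes at a mean log2 CPM of 3 or more (predicted genes, receptor segments and -ps symbols left out), followed genes, called or leading members of lists, and the 10 highest per kilobase. The genes, lists and tests were chosen with earlier results of these data known. Neighbours of Ola1 and of the other called genes, Trbv12-1, Tmem181c-ps and members of lists beyond the leading 2 were chosen after their values were seen. Alternatives were other scalings, DESeq2 1.42.0, other filters, leaving out mitochondrial genes, no robust shrinkage, legacy deviances, a replicate block, the day 7 libraries alone and leaving out each library.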

Additional observations from a re-analysis of the deposited data

Results flagged for a closer look

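Ola1 is given here because its KO effect on day 7 differed from that in the other populations by a test of the difference itself. Relative to SLEC on day 14 the log2 change was larger by 3.85 ± 0.43 (SE, 2 libraries per group, adjusted p = 0.032 by edgeR), and relative to MPEC it was larger by 4.88 ± 0.43 (adjusted p = 0.0036). Both WT SLEC libraries of day 7 lay below 100 CPM, at 81.6 and 95.5 CPM, and the other 10 libraries lay at 1560 CPM or more. The first difference was called in 8 of 12 fits that left out 1 library (adjusted p up to 0.60) and the second in 9 of 12 (up to 0.79).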

How the results depend on the processing

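The count of called genes on day 7 was 4 with the main settings and 3 to 6 with the other scalings, the stricter filter, DESeq2 (6), no robust shrinkage, legacy deviances or mitochondrial genes left out. It was 23 without a filter on low counts (14 higher, 9 lower) and 2 with the day 7 libraries alone, where 12898 genes were tested. Leaving out 1 library gave 2 to 198, with the high count coming without WT SLEC day 7 replicate 2 and the low one without KO SLEC day 7 replicate 2. Ctse kept its call in all 23 alternatives, Ptprv in 21, Ola1 in 22 and Mfsd14b in 9. For the difference from day 14, 1 gene was called, against 28 by DESeq2, 109 without a filter, 2 without robust shrinkage, 2 with legacy deviances and 0 to 91 with a library left out. For the difference from MPEC, 1 was called, with 0 to 20 when a library was left out, and the 1 gene called without a filter was a different gene. With the replicate number as a block, 3 genes were called on day 7 (Mfsd14b lost its call), 2 in the difference from day 14 and 1 in that from MPEC, so the block changed no other call on day 7. Same-numbered WT and KO SLEC of day 7 deviated with a correlation of -0.18, and other pairs of groups with -0.18 to 0.19. With 2 libraries a group, these values cannot decide whether equal numbers mark libraries that belong together. A block with the KO numbers crossed, added after the data were seen, called 3, 2 and 1. The cause of these shifts was not tested. With 2 libraries a group, the median half-width of the 95% interval was 0.44 log2 units at a mean log2 CPM of 3 or more.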
